A study of Homo sapiens with 6 samples.

Results

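The 10 genes examined here encode the components of the transcription factor AP-1 and a few immediate early factors that are induced together with them: FOS, FOSB, FOSL1 and FOSL2 of the FOS family, JUN, JUNB and JUND of the JUN family, the small MAF protein MAFF, the BATF family member BATF3, and IER2. They were picked out by gene symbol, from a list drawn up with earlier results of these data known. All 10 were present among the 23569 genes of the expression table. ATF3, a factor often grouped with these genes, was not among the 10 and is given below with the other AP-1 partners. RNA-seq was performed on TFK1, an established human extrahepatic cholangiocarcinoma cell line, in 3 negative control libraries (oeNC) and 3 libraries overexpressing STUB1 (oeSTUB1). Both groups carried a lentiviral construct and are each, as far as the study's methods state, a single stably transduced population of TFK1 cells. By those methods, transduced cells were selected with puromycin. The sample labels give only the group and replicate and name no treatment. STUB1 (also known as CHIP) is an E3 ubiquitin ligase that works with heat shock chaperones, and the comparison was made to find the genes whose expression differs once STUB1 is overexpressed. The study's methods state in general that experiments were repeated independently, without naming the RNA-seq, and separate cultures are not stated for the 3 replicates of a group. The p-values therefore measure only the spread between these libraries, which may be technical.

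AP-1 is a dimer of basic leucine zipper (bZIP) proteins. JUN proteins pair with one another or with FOS proteins, whereas FOS proteins need a JUN partner, and the dimers bind a short palindrome called the TPA response element (TRE) or the related cAMP response element (CRE). FOS, FOSB, JUN, JUNB and IER2 are classical immediate early genes, whose transcripts appear within minutes of a growth factor, stress or serum signal without new protein synthesis and are then rapidly degraded, whereas FOSL1 and FOSL2 are induced later and JUND is expressed more steadily. In epithelial cancers AP-1 is known for its part in proliferation, invasion and inflammatory gene expression.

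Promoter sequences were available for 8 of the 10 genes, all but FOSL1 and BATF3, as 300 bases on the strand of the gene, 250 before and 50 after the transcription start (RefSeq, GRCh38.p14). The gene positions given below come from another annotation, GENCODE release 29. By those positions the windows of FOSL2, JUN and MAFF lie wholly inside the gene. Distances from the start therefore hold for the RefSeq start only. The promoters of FOS, FOSL2 and JUN are shown because the results below turn on these 3 genes. Capitals mark every match, on either strand, to the CRE (TGACGTCA), the TRE (TGACTCA, which read on the other strand is TGAGTCA), the CRE core (TGACG), the GC box (GGGCGG), the CCAAT box (CCAAT) and the CArG box bound by serum response factor. A full CRE contains a core on each strand, and in the JUN promoter a core and a GC box share 1 base.
FOS promoter, chr14:75278578-75278877, plus strand: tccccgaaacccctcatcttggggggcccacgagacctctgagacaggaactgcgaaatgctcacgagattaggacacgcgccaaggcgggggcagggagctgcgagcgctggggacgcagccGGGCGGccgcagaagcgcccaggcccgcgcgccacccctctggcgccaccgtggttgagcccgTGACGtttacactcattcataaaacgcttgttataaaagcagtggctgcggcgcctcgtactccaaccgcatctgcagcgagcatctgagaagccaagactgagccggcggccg
FOSL2 promoter, chr2:28392608-28392907, plus strand: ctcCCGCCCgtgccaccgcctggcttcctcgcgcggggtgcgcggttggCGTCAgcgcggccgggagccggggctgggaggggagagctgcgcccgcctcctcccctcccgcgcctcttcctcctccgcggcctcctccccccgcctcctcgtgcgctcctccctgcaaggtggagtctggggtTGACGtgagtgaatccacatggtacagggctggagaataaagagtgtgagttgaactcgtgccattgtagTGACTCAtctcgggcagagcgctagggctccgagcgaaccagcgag
JUN promoter, chr1:58783998-58784297, minus strand: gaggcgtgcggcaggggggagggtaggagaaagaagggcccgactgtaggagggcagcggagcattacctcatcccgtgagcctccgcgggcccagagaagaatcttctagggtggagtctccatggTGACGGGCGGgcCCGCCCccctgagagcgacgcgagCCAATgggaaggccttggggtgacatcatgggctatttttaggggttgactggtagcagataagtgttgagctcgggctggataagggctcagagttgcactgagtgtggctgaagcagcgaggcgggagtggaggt
The FOS promoter held 1 CRE core at positions -64 to -60 and 1 GC box at -127 to -122, counted from the transcription start. The FOSL2 promoter held a TRE just downstream of the start, at 5 to 11, 1 GC box and 2 CRE cores, of which the nearer lay at -66 to -62. The JUN promoter held 2 GC boxes, a CCAAT box at -87 to -83 and 1 CRE core at -123 to -119.

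Across the 8 matched genes, the CRE core was found in 8, the GC box in 7 and the CCAAT box in 4. The full CRE was found in 2, JUND and MAFF, the TRE in 1, FOSL2, and the CArG box in 0. Bases outside the 300-base window were not searched, so these counts do not show that a gene lacks a site further upstream. Among all 35116 promoters of the RefSeq table, the CRE core was present in 24.6%, the GC box in 44.95%, the CCAAT box in 34.6%, the TRE in 4.95%, the CRE in 1.85% and the CArG box in 1.29%. The 8 promoters were GC-rich, from 62% in JUN to 77% in JUND, against a median of 58.7% over all promoters. MAFF has 2 entries in the RefSeq table, and the one listed first was read for its positions. The core was added to the search after the sequences had been seen. These matches describe the letters in the window and are not shown here to be bound.

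Library totals lay between 33106564 and 36744521 fragments. STUB1 itself was 32.9, 33.0 and 30.9 FPKM (fragments scaled to gene length and library total) in the oeNC libraries and 61.4, 75.0 and 61.9 FPKM in the oeSTUB1 libraries (log2 fold change 1.03, SE 0.097, limma adjusted p = 0.000642). Among the biliary epithelial markers, KRT7 was 482 to 527 FPKM in oeNC and 587 to 872 FPKM in oeSTUB1 cells. It did not pass the test (log2 fold change 0.47, limma adjusted p = 0.0818). KRT19 was only 0.374 to 0.529 FPKM in oeNC and 2.51 to 3.41 FPKM in oeSTUB1 cells. The sum of the 7 markers was 7419 to 7996 FPKM in oeNC against 4724 to 6263 FPKM in oeSTUB1 cells. Most of that sum came from KRT8 (mean 3216 FPKM in oeNC, 2172 FPKM in oeSTUB1) and KRT18 (3964 and 2488 FPKM). Of the 7 markers, 4 were called lower and 1, KRT19, higher, beside 6.59% lower and 7.01% higher over all tested genes. The sums of the 6 fibroblast markers (at most 3.92 FPKM) and the 3 endothelial markers (at most 0.231 FPKM) were low. So was that of the 4 hepatocyte markers (at most 1.18 FPKM). The 4 leukocyte markers summed to 31.5 to 33.2 FPKM in oeNC and 24.0 to 25.3 FPKM in oeSTUB1 cells. CD68 made up most of that sum and was called lower (mean 27.2 FPKM in oeNC, 19.2 FPKM in oeSTUB1, limma adjusted p = 0.00303). CD14 (5.05 and 5.24 FPKM) did not pass. PTPRC, which defines leukocytes, was at most 0.280 FPKM, with means of 0.121 FPKM in oeNC and 0.225 FPKM in oeSTUB1, and did not pass either. The part of these marker differences in the results below was not tested, and in bulk RNA fewer cells of a type and less RNA per cell cannot be told apart. Each within its own group, oeNC replicate 3 and oeSTUB1 replicate 2 stood apart, to unlike degrees. Of 11375 genes averaging 1 FPKM or more, 35 deviated over 2-fold from the other libraries of the group in oeNC replicate 3. That number was 179 in oeSTUB1 replicate 2, 14 and 15 in oeNC replicates 1 and 2, and 40 and 41 in oeSTUB1 replicates 1 and 3. Immediate early genes were high in oeNC replicate 3, as described with each gene. In oeSTUB1 replicate 2, genes under 2 kb deviated from the other libraries of the group by a median of 0.39 and genes over 4 kb by -0.23 on the log2 scale.

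STUB1 overexpression was accompanied by lower FOS and higher FOSL2 mRNA, and the other 8 genes did not pass the test. Differences were tested with limma on log2(FPKM + 0.1), a scale that understates the change of low genes, with Benjamini-Hochberg adjustment over the 15353 genes that averaged 0.1 FPKM or more. All 10 genes passed that filter. At an adjusted p under 0.05, 2 of 10 were called, 1 higher and 1 lower, against 13.6% of all tested genes in either direction, 7.01% higher and 6.59% lower. With a change of more than 2-fold also required, 1 of 10 was called (FOS), against 5.2% of tested genes. The groups did not overlap for 3 of 10 genes (FOS, FOSL1 and FOSL2), against 38.8% of tested genes. Counted this way, the shares among the 10 genes were near those over all genes. The median log2 fold change was -0.07 over the 10 genes and 0.02 over all tested genes.

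**Figure D1:**
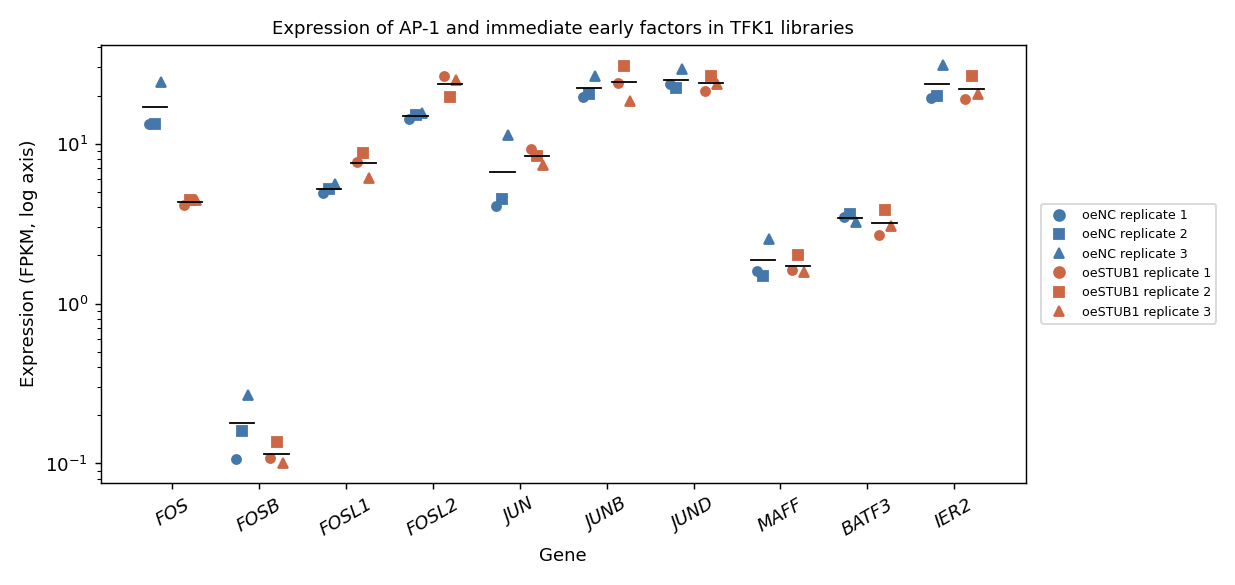
Expression (FPKM, log axis) of the 10 genes in each library, with oeNC in blue and oeSTUB1 in orange, symbols for replicates 1 to 3 and a black line at the group mean. FOS sits between 13.3 and 24.1 FPKM in oeNC and between 4.14 and 4.44 FPKM in oeSTUB1 libraries, FOSL2 is higher in each oeSTUB1 library, and the triangle of oeNC replicate 3 is the highest oeNC point for every gene but BATF3.

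FOS (14:75278774-75282230 on GRCh38, plus strand) encodes the founding FOS protein, which is made in a short burst after stimulation and degraded quickly. Its level was 13.3, 13.3 and 24.1 FPKM in oeNC replicates 1, 2 and 3, and 4.14, 4.42 and 4.44 FPKM in oeSTUB1 replicates 1, 2 and 3. The 3 oeSTUB1 libraries lay close together and far below the lowest oeNC library, while oeNC replicate 3 was well above its 2 companions. FOS fell in oeSTUB1 cells, with a group mean of 16.9 ± 6.27 FPKM (SD, n = 3) in oeNC and 4.33 ± 0.168 FPKM (n = 3) in oeSTUB1, a ratio of 3.90 between oeNC and oeSTUB1. The log2 fold change was -1.88 (SE 0.219, 95% interval -2.39 to -1.37, limma adjusted p = 0.00154). Without oeNC replicate 3 it was -1.60 (SE 0.1003, adjusted p = 0.00106). The fragments behind these values numbered 968, 971 and 1867 in oeNC and 300, 308 and 319 in oeSTUB1 libraries. Among all tested genes, the log2 fold change of FOS was at percentile 0.528 from the bottom.

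FOSB (19:45467995-45475179, plus strand), a close relative of FOS, was barely expressed, at 0.107, 0.160 and 0.267 FPKM in oeNC and 0.108, 0.136 and 0.101 FPKM in oeSTUB1 libraries. It rested on 13 to 37 fragments per library, and the groups overlapped. The log2 fold change was -0.34 (95% interval -0.97 to 0.30, adjusted p = 0.459), an interval wide enough to hold a fall or a small rise. FOSB overlaps ERCC1 on the opposite strand, and the sources used here do not state whether fragments were counted by strand.

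FOSL1 (11:65892049-65900573, minus strand) encodes FRA-1, a FOS protein without the strong activation domain of FOS that is linked to invasion and mesenchymal change in carcinomas. Its level was 4.89, 5.19 and 5.63 FPKM in oeNC libraries and 7.72, 8.77 and 6.07 FPKM in oeSTUB1 libraries. All 3 oeSTUB1 libraries lay above all 3 oeNC libraries, though oeSTUB1 replicate 3 exceeded oeNC replicate 3 by little. The log2 fold change was 0.50 (SE 0.141, 95% interval 0.17 to 0.83), with an adjusted p of 0.0547 in limma, just outside the threshold. It did not pass in 13 of the 16 alternatives, with adjusted p up to 0.184, including those without oeNC replicate 1 (0.184), 2 (0.167) or 3 (0.109) and without oeSTUB1 replicate 1 (0.124). It passed without oeSTUB1 replicate 2 (log2 fold change 0.38, adjusted p = 0.044) and without oeSTUB1 replicate 3 (0.64, adjusted p = 0.0179), and also when each library was corrected by lowess for gene length, an alternative chosen after seeing the data (0.43, adjusted p = 0.0263).

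FOSL2 (2:28392448-28417312, plus strand) encodes FRA-2, the other late FOS protein, known for roles in differentiation and fibrosis. Its level was 14.2, 15.1 and 15.5 FPKM in oeNC libraries and 26.6, 19.7 and 24.9 FPKM in oeSTUB1 libraries. The oeNC libraries were tightly grouped, and the lowest oeSTUB1 value, in replicate 2, was above all of them. FOSL2 rose in oeSTUB1 cells, from a mean of 14.9 ± 0.637 FPKM to 23.7 ± 3.63 FPKM (SD, n = 3 each), a ratio of 1.59. The log2 fold change was 0.66 (SE 0.119, 95% interval 0.38 to 0.93, limma adjusted p = 0.0106). It no longer passed without oeNC replicate 1 (0.62, adjusted p = 0.0554). Without oeNC replicate 3 it was 0.68 (adjusted p = 0.0418), and with the gene length correction 0.73 (adjusted p = 9.61e-05). FOSL2 lies on chromosome 2, where the median log2 fold change of 1031 tested genes was -0.21, and it ranked at percentile 95.2 of that chromosome. It overlaps an antisense gene, FLJ31356, and an intronic gene on its own strand, AC104695.3, and fragments of the latter could not be told from those of FOSL2 by strand.

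The make-up of the FOS family differed between the groups while its summed level overlapped. FPKM is scaled to gene length, so levels of different genes can be set side by side as far as the lengths used hold for these cells. Those lengths were 8787 bases for FOSL2 and 2104 for FOS, and their fit to the transcripts present was not tested. In oeSTUB1 replicate 2 the values also deviated with gene length, as given above. Summed over FOS, FOSB, FOSL1 and FOSL2, the oeNC libraries reached 37.2 ± 7.19 FPKM and the oeSTUB1 libraries 35.7 ± 2.81 FPKM (SD, n = 3 each). FOS made up 40.8%, 39.5% and 53.1% of that sum in oeNC replicates 1, 2 and 3 and 10.7%, 13.4% and 12.5% in oeSTUB1 replicates 1, 2 and 3. FOSL2 made up 43.8%, 44.7% and 34.0% in oeNC and 69.0%, 59.6% and 70.2% in oeSTUB1 libraries. Neither share overlapped between the groups. The share of FOSL1 was 14.3% ± 1.66 in oeNC and 21.2% ± 4.86 in oeSTUB1 libraries (SD, n = 3 each), and FOSB stayed below 0.6% in every library. The ratio of FOSL2 to FOS FPKM was 1.07, 1.13 and 0.640 in oeNC and 6.44, 4.45 and 5.62 in oeSTUB1 libraries. Shares and ratios are a description of the same values and were not tested separately.

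**Figure D2:**
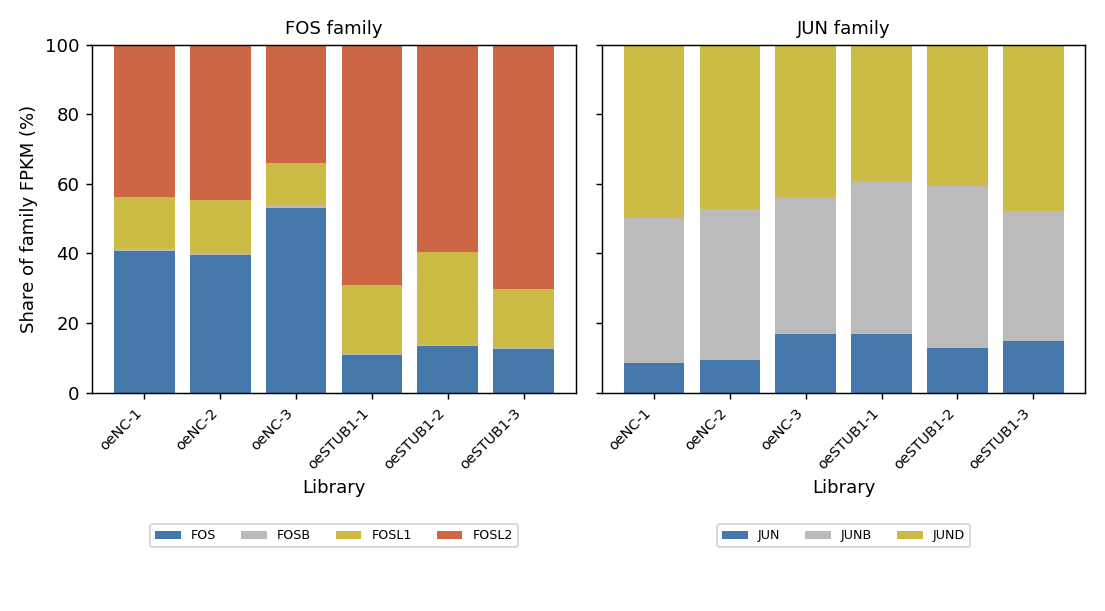
Share (%) of the summed FPKM of the FOS family (left) and the JUN family (right) contributed by each gene, 1 bar per library. FOS takes 39.5% to 53.1% of the FOS family in oeNC and 10.7% to 13.4% in oeSTUB1 libraries, whereas JUNB and JUND dominate the JUN family in all 6.

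JUN (1:58780788-58784327, minus strand) encodes the JUN protein that pairs with FOS proteins and is activated by the kinase JNK. Its level was 4.09, 4.48 and 11.3 FPKM in oeNC replicates 1, 2 and 3, and 9.27, 8.39 and 7.32 FPKM in oeSTUB1 replicates 1, 2 and 3. oeNC replicate 3 held the highest value of all 6 libraries, and the other 2 oeNC libraries lay below all 3 oeSTUB1 libraries. With all 6 libraries JUN did not pass (log2 fold change 0.48, SE 0.347, 95% interval -0.33 to 1.28, adjusted p = 0.401). Without oeNC replicate 3 the log2 fold change was 0.94 (SE 0.133, limma adjusted p = 0.0109). The direction was the same in both, so the size and the call for JUN rested on 1 control library. JUN passed in only 1 of the 16 alternatives, the one without oeNC replicate 3, where JUN itself was high. Without oeNC replicate 1 its log2 fold change was 0.21 (limma adjusted p = 0.76), and without oeNC replicate 2 it was 0.28 (adjusted p = 0.725).

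JUNB (19:12791496-12793315, plus strand) is a weaker activator than JUN that can restrain JUN activity. It was 19.7, 20.5 and 26.4 FPKM in oeNC and 24.0, 30.8 and 18.5 FPKM in oeSTUB1 libraries. The oeSTUB1 libraries held both the highest and the lowest value, and the log2 fold change was 0.12 (95% interval -0.32 to 0.56, adjusted p = 0.713). JUND (19:18279760-18281622, minus strand), the JUN protein with the steadiest expression, was 23.6, 22.4 and 29.4 FPKM in oeNC and 21.5, 26.7 and 23.7 FPKM in oeSTUB1 libraries. The groups overlapped and the log2 fold change was -0.06 (95% interval -0.36 to 0.23, adjusted p = 0.773). JUNB overlaps HOOK2 on the opposite strand.

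Within the JUN family, the summed level of the oeNC libraries was 54.0 ± 11.4 FPKM, against 56.7 ± 8.27 FPKM in the oeSTUB1 libraries (SD, n = 3 each). JUN made up 8.63%, 9.46% and 16.9% in oeNC and 16.9%, 12.8% and 14.8% in oeSTUB1 libraries, so its share in oeNC replicate 3 was as high as in oeSTUB1 cells. JUNB (41.4% ± 1.98 against 42.7% ± 4.80) and JUND (47.0% ± 3.00 against 42.5% ± 4.68) shared the rest.

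MAFF (22:38200767-38216511, plus strand) encodes a small MAF protein, which lacks an activation domain and pairs with other bZIP proteins such as NRF2 and BACH1. It was 1.59, 1.48 and 2.54 FPKM in oeNC and 1.61, 2.01 and 1.56 FPKM in oeSTUB1 libraries. The oeNC libraries held both the highest value, in replicate 3, and the lowest, in replicate 2, and the log2 fold change was -0.08 (95% interval -0.57 to 0.41, adjusted p = 0.841). MAFF overlaps PLA2G6 on the opposite strand. BATF3 (1:212686418-212699985, minus strand), a JUN-pairing factor best known from dendritic cells, was 3.47, 3.63 and 3.25 FPKM in oeNC and 2.69, 3.85 and 3.06 FPKM in oeSTUB1 libraries. The log2 fold change was -0.12 (95% interval -0.45 to 0.21, adjusted p = 0.616), and BATF3 was the only one of the 10 genes that was lowest, not highest, in oeNC replicate 3 within its group.

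IER2 (19:13150415-13154908, plus strand) encodes a nuclear immediate early protein that is not a bZIP factor. It was 19.3, 19.8 and 31.3 FPKM in oeNC and 18.9, 26.6 and 20.4 FPKM in oeSTUB1 libraries. oeNC replicate 3 and oeSTUB1 replicate 2 were the high libraries, and the remaining 4 lay together. The log2 fold change was -0.07 (95% interval -0.54 to 0.40, adjusted p = 0.847).

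**Figure D3:**
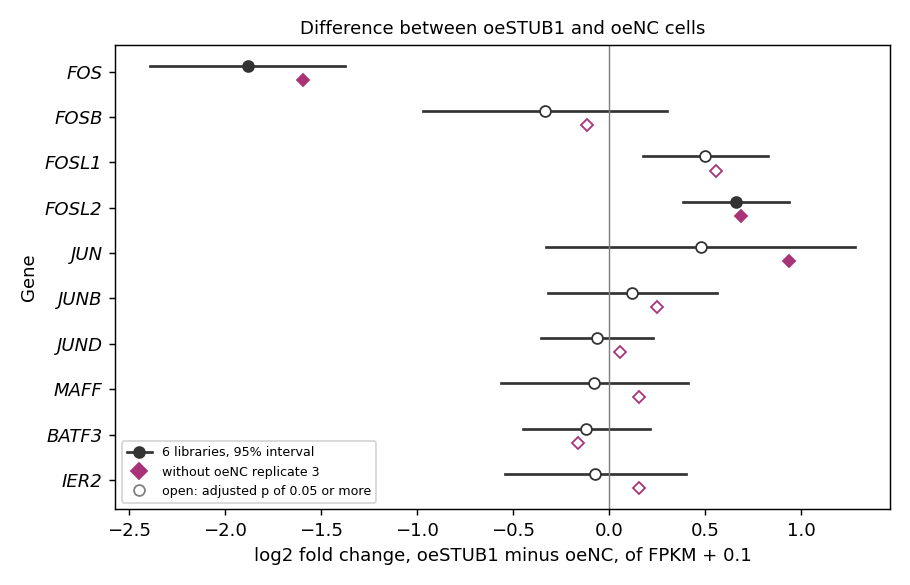
Log2 fold change (oeSTUB1 minus oeNC, of FPKM + 0.1) of each gene in all 6 libraries, with its 95% interval (black circles), and without oeNC replicate 3 (purple diamonds), where filled symbols have an adjusted p under 0.05. FOS (-1.88) and FOSL2 (0.66) are filled in both fits, and JUN is filled only without oeNC replicate 3 (0.94).

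The order of the levels differed between the groups mainly through FOS and FOSL2. In oeNC cells JUND (25.1 ± 3.74 FPKM, SD, n = 3), IER2 (23.4 ± 6.76), JUNB (22.2 ± 3.65), FOS (16.9 ± 6.27) and FOSL2 (14.9 ± 0.637) came first, and each of these overlapped its neighbour in the order. JUN (6.63 ± 4.07) and FOSL1 (5.24 ± 0.370) followed and overlapped each other, and BATF3 (3.45 ± 0.190), MAFF (1.87 ± 0.579) and FOSB (0.178 ± 0.0814) were each separate from the gene above. In oeSTUB1 cells JUNB (24.4 ± 6.12), JUND (24.0 ± 2.60), FOSL2 (23.7 ± 3.63) and IER2 (22.0 ± 4.06) formed the top group, with each overlapping its neighbour. JUN (8.33 ± 0.973) and FOSL1 (7.52 ± 1.36) came next and overlapped, and FOS (4.33 ± 0.168) lay below both, just above BATF3 (3.199 ± 0.594).

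Most of the 10 genes were high in the same libraries. In oeNC replicate 3, 9 of the 10 were at their highest within oeNC, and 6 of the 10 were higher there than in any of the other 5 libraries. Among all tested genes 42.9% were highest in oeNC replicate 3 within oeNC. Relative to the mean of oeNC replicates 1 and 2, the level in oeNC replicate 3 was 2.64 times as high for JUN, 2.00 times for FOSB, 1.82 times for FOS, 1.65 times for MAFF and 1.60 times for IER2. JUNB (1.31 times), JUND (1.28 times), FOSL1 (1.12 times) and FOSL2 (1.06 times) were nearer to the other replicates, and BATF3 was at 0.917 of them. Ranked by this difference on the log2 scale among the 11375 genes that averaged 1 FPKM or more, JUN was at rank 8, FOS at rank 38, MAFF at rank 64 and IER2 at rank 73.

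Other immediate early genes deviated in the same library: 24 of the 29 in the table were highest in oeNC replicate 3 within oeNC (82.8%). EGR1, a zinc finger factor induced through the same serum and ERK signals as FOS, had the largest deviation of the 11375 genes, at 0.395, 0.487 and 4.01 FPKM in oeNC replicates 1, 2 and 3 against 0.629, 0.876 and 0.961 FPKM in oeSTUB1 replicates 1, 2 and 3. PPP1R15A, a stress-induced phosphatase subunit, was at rank 10 and GADD45B, a growth arrest gene, at rank 14. Genes outside both lists also ranked high, among them DDIT3 at rank 2, TSC22D3 at rank 4 and ANKRD1 at rank 6. The deviation of this library was therefore not confined to immediate early genes. In the oeSTUB1 group, replicate 2 was the highest library for 7 of the 10 genes, against 41.0% of all tested genes. FOSL2, with a length of 8787 bases in the table's scaling, was lowest there and FOSL1, with 1702 bases, was highest there. The part of this length pattern in the single values was not tested beyond the length correction given with FOSL1 and FOSL2.

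**Figure D4:**
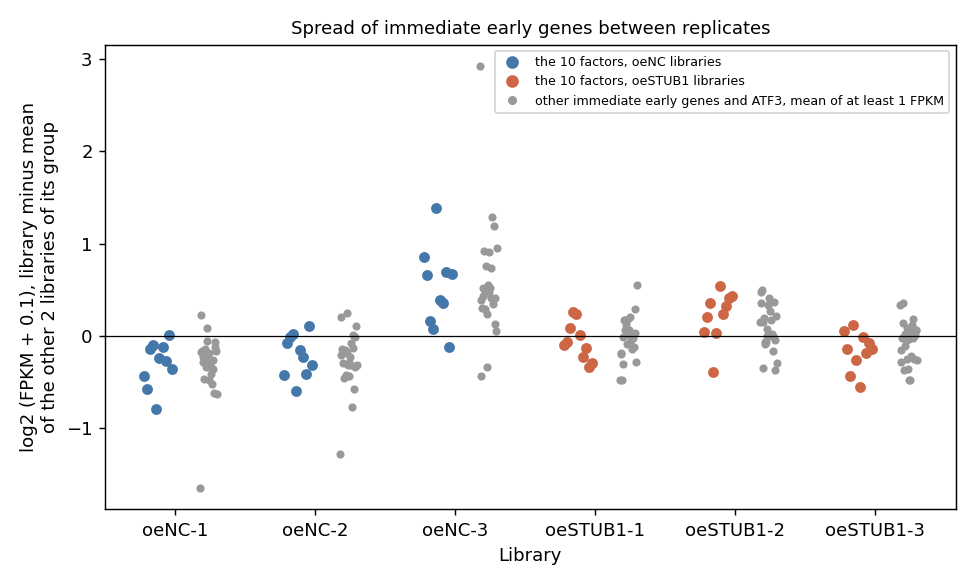
Difference in log2 (FPKM + 0.1) between each library and the mean of the other 2 libraries of its group, for the 10 genes (blue in oeNC, orange in oeSTUB1) and, in grey, for the other immediate early genes and ATF3 where they averaged 1 FPKM or more. In oeNC replicate 3 all of the 10 genes but BATF3 lie above 0, up to 1.38 for JUN, and EGR1 reaches 2.93.

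The 5 genes whose profile over the 6 libraries was most like that of FOS were found by the root mean square distance of centred log2(FPKM + 0.1) values among 11374 genes that averaged 1 FPKM or more. They were LOC105374333 (distance 0.188), PELI1 (0.196), TMEM151A (0.203), SPX (0.205) and ADH6 (0.241), beside a range of 2.52 for FOS itself. SPX, which encodes the peptide hormone spexin, was 14.3, 14.7 and 18.2 FPKM in oeNC and 3.39, 4.504 and 4.40 FPKM in oeSTUB1 libraries. PELI1, an E3 ubiquitin ligase of innate immune signalling, was 3.90, 3.73 and 5.50 FPKM in oeNC and 1.42, 1.18 and 1.39 FPKM in oeSTUB1 libraries. Both were highest in oeNC replicate 3, where FOS was highest too. These genes were picked for likeness to FOS over the same 6 libraries, so the shared peak is not a separate result.

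Among 13 other bZIP partners, 8 passed the filter and all 8 had a negative log2 fold change, as did 7270 of all 15353 tested genes. Only 2 of the 8 passed the test, both lower, beside 6.59% called lower over all tested genes. The median log2 fold change of the 8 was -0.26 against 0.02 over all tested genes. ATF3, a stress-induced factor that represses or activates with JUN partners, was 2.20, 2.56 and 4.68 FPKM in oeNC and 1.56, 1.02 and 1.04 FPKM in oeSTUB1 libraries. The groups did not overlap, oeNC replicate 3 was again the highest, and ATF3 fell by 1.26 on the log2 scale (SE 0.286, limma adjusted p = 0.0259). That call was lost without oeNC replicate 2 (adjusted p = 0.063), without oeNC replicate 3 (-0.94, adjusted p = 0.0515) and without oeSTUB1 replicate 3 (adjusted p = 0.0728). BACH1, a heme-regulated repressor that pairs with small MAF proteins, fell from 8.94, 9.15 and 10.8 FPKM to 5.18, 4.05 and 5.71 FPKM (log2 fold change -0.95, adjusted p = 0.00468) and passed whichever library was left out. The small MAF genes MAFG (14.0 to 16.7 FPKM over the 6 libraries) and MAFK (33.8 to 46.5 FPKM) exceeded MAFF in level, and neither passed the test.

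Of 30 other immediate early genes, 29 were in the table and 26 were tested. Beside 7.01% higher and 6.59% lower over all tested genes, 4 of the 26 were called higher and 3 lower. The median log2 fold change of the 26 was 0.03, against 0.02 over all tested genes. The lower genes were KLF2, a zinc finger factor induced by fluid flow and statins (log2 fold change -1.17, adjusted p = 0.0237), NR4A2, an orphan nuclear receptor (-0.62, adjusted p = 0.0499), and ZFP36, an RNA-binding protein that speeds the decay of AU-rich mRNAs (-0.61, adjusted p = 0.00497). The higher genes were NFKBIZ, a regulator of NF-kB target genes (1.03, adjusted p = 0.00332), CCN2, a matricellular protein (0.71, adjusted p = 0.043), PLK3, a stress-response kinase (0.61, adjusted p = 0.0183), and MCL1, a survival protein of the BCL2 family (0.33, adjusted p = 0.026). NFKBIZ and ZFP36 passed whichever library was left out. KLF2 was lost without oeSTUB1 replicate 1 (adjusted p = 0.0553) or oeSTUB1 replicate 3 (adjusted p = 0.0693). The call was lost in 4 of the 6 fits without 1 library for CCN2 and PLK3 and in 5 of 6 for MCL1 and NR4A2, with adjusted p up to 0.155, 0.0876, 0.143 and 0.156, respectively. The fits that kept the call left out oeNC replicate 3 or oeSTUB1 replicate 3 for CCN2, oeSTUB1 replicate 1 or 2 for PLK3, oeSTUB1 replicate 2 for MCL1 and oeSTUB1 replicate 3 for NR4A2. EGR1 itself was not called (-0.22, adjusted p = 0.869), and without oeNC replicate 3 its log2 fold change was 0.76 (adjusted p = 0.114).

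The list of kinases and factors upstream of AP-1 gave 2 higher and 2 lower of 23 tested, beside 7.01% and 6.59% over all tested genes. The median log2 fold change of the list was -0.02, against 0.02 over all tested genes. SRF, the factor that binds CArG boxes (5.73, 5.94 and 6.18 FPKM in oeNC, 8.14, 7.41 and 7.40 FPKM in oeSTUB1, log2 fold change 0.36, adjusted p = 0.0331), and its ETS partner ELK3 (0.32, adjusted p = 0.0367) were higher. MAP3K1, a kinase at the top of the JNK pathway (-0.84, adjusted p = 0.0264), and MAPK3, which encodes ERK1 (-0.43, adjusted p = 0.0277), were lower. None of these calls held in every fit without 1 library: SRF, ELK3 and MAPK3 were lost in 5 of 6, all but the fit without oeSTUB1 replicate 2, with adjusted p up to 0.151, 0.146 and 0.127, and MAP3K1 in 3 of 6, each without 1 oeNC library, with adjusted p up to 0.0974.

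Genes that set the turnover of AP-1 proteins and mRNAs gave 2 higher and 2 lower of 13 tested, beside 7.01% and 6.59% over all tested genes. The median log2 fold change of the list was 0.00143, against 0.02 over all tested genes. The ZFP36 family of mRNA decay factors moved in both directions. ZFP36L1 rose from 21.7, 21.6 and 24.9 FPKM to 46.7, 44.7 and 40.2 FPKM (log2 fold change 0.95, adjusted p = 0.000744), whereas ZFP36L2 fell from 26.7, 26.6 and 31.6 FPKM to 15.1, 16.0 and 18.2 FPKM (-0.78, adjusted p = 0.00293). ZFP36, counted in this list as well, fell as given above, and all 3 passed whichever library was left out. GSK3A, a kinase that phosphorylates JUN, was higher (0.31, adjusted p = 0.0333) but lost its call in each fit without 1 library other than oeSTUB1 replicate 2, with adjusted p up to 0.164. The ubiquitin ligase genes FBXW7 (-0.32, adjusted p = 0.115), COP1 (0.01, adjusted p = 0.949) and ITCH (-0.07, adjusted p = 0.717), whose products act on JUN proteins, did not pass.

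Of 22 known AP-1 target genes, 18 were in the table and 16 were tested. Of the 16, 6 were higher, 1 lower and 9 did not pass, beside 7.01% higher and 6.59% lower over all tested genes. The median log2 fold change of the 16 was 0.16, against 0.02 over all tested genes. IL11 and CXCL8 had the largest changes. IL11, an interleukin 6 family cytokine, was 1.82, 1.54 and 0.996 FPKM in oeNC and 11.01, 13.9 and 5.59 FPKM in oeSTUB1 libraries (log2 fold change 2.67, adjusted p = 0.00233). CXCL8, the neutrophil chemokine, was 5.87, 6.35 and 10.9 FPKM in oeNC and 26.4, 37.2 and 38.8 FPKM in oeSTUB1 libraries (2.17, adjusted p = 0.00132). Both passed whichever library was left out. TIMP1, a metalloproteinase inhibitor (0.70, adjusted p = 0.0154), was lost without any 1 of the 3 oeNC libraries (adjusted p up to 0.0711), and CD44, a hyaluronan receptor (0.62, adjusted p = 0.00887), without oeNC replicate 1 (adjusted p = 0.0514). IL6, also counted as higher, had 0, 0 and 6 fragments in oeNC and 28, 18 and 23 in oeSTUB1 libraries. It cleared the filter only through the oeSTUB1 group, so its call (adjusted p = 0.0134) carries no weight in the count. It fell below the filter without oeSTUB1 replicate 1 or 3, and its call was lost without oeNC replicate 1 (adjusted p = 0.0571) or 2 (adjusted p = 0.0587). HMGA1, a chromatin protein, was lower (-0.29, adjusted p = 0.0458), a call lost in each fit without 1 library other than oeSTUB1 replicate 2, with adjusted p up to 0.177. PLAU, which encodes urokinase (-0.02, adjusted p = 0.905), and CCND1, which encodes cyclin D1 (0.15, adjusted p = 0.306), did not pass, and the collagenase gene MMP1 was below the filter, at 0 to 0.069 FPKM.

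**Figure D5:**
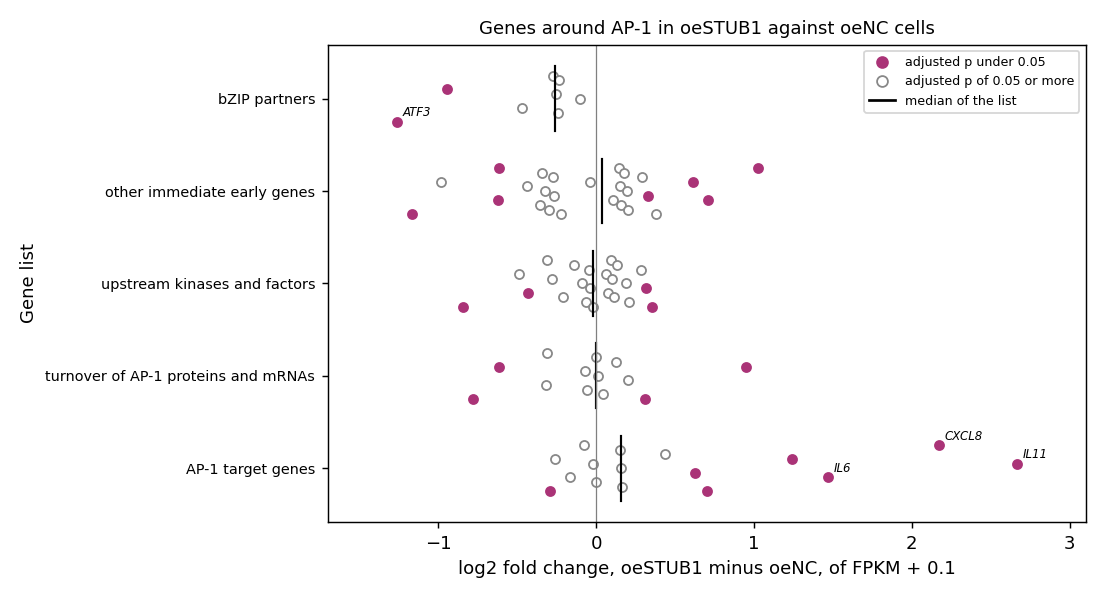
Log2 fold change (oeSTUB1 minus oeNC, of FPKM + 0.1) of each tested gene of 5 lists around AP-1, with purple points for an adjusted p under 0.05, open points for the rest and a black line at the median of each list. The bZIP partners have the lowest median (-0.26) and the AP-1 target genes the highest (0.16), the latter with IL11 (2.67) and CXCL8 (2.17) at the far right.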

How the data were processed

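The 6 RNA-seq libraries of TFK1 cells, 3 oeNC and 3 oeSTUB1, were grouped by their labels. The authors deposited FPKM values for 23569 genes. The submitters' processing notes name fastp 0.20.1, HISAT2 2.1.0, HTSeq 0.11.2, R 3.2.0, DESeq2 1.22.2 and the build GRCh38.p13, without role or order. The annotation and the strand setting of the counting are not given in the sources used here. All value columns were matched to a sample, leaving 0 unmatched.

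Whole fragments were recovered from the steps of the FPKM values for 100.0% of genes, with recomputed FPKM differing from the deposited values by at most 1.07e-05. A gene's fragments may be understated by a whole factor. No pair of replicates agreed within sampling noise (chi-square per degree of freedom 3.37 to 76.7).

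Moderated tests (limma, 2-sided) were run in R 4.3.3 with version 3.58.1 of limma, using lmFit and a trended eBayes, on log2(FPKM + 0.1) of genes averaging 0.1 FPKM or more, with Benjamini-Hochberg adjustment over the 15353 genes tested and a threshold of 0.05. The 95% intervals come from the same fit. An exact permutation test of 3 libraries against 3 cannot go below p = 0.1 and was not used. On simulated data with 200 genes changed 4-fold, 194 were called with the right sign among 15347 tested, with 17 unchanged genes called. The simulated replicates of a group shared the same mean and spread, without the deviating libraries seen in the real data. These rates therefore need not hold for the real libraries. Python 3.11.15 was used for the other steps.

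The 10 genes and the lists were chosen with earlier results of these data known. Named are the 10 genes, STUB1, ATF3, EGR1, SRF, cell type markers, the defining genes of a list and the 5 nearest profiles to FOS. Up to 4 called genes per list and direction are also named. They had the largest change among the reported genes that averaged 1 FPKM or more in the higher group. IL6, below that level, is named in addition. A further called gene of the AP-1 target list is not reported here. PPP1R15A, GADD45B, DDIT3, TSC22D3, ANKRD1, MAFG and MAFK were named after their values were seen. Gene positions are those of GENCODE release 29. Alternatives tried were a pseudocount of 1 or 0.01, dropping the filter or raising it to 1 FPKM, quantile normalization, median-ratio scaling, an untrended eBayes, a replicate block, limma-voom on recovered fragments, and leaving out each library. The lowess correction for gene length was added after the data were seen. The sources used here do not say that replicate numbers pair the libraries, and the main fit did not pair them.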

Additional observations from a re-analysis of the deposited data

How the results depend on the processing

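FOS passed the test, at log2 fold changes from -2.03 to -1.60, in all 16 alternatives run, and FOSL2 in 15 of 16, failing without oeNC replicate 1. Among the 10 genes, 1 was called lower in every alternative, and the number called higher was 2 with the lowess correction and 0 to 2 when 1 library was left out. Leaving out 1 library also turned the sign of 4 genes that did not pass, whose log2 fold changes then lay between -0.0598 and 0.304 for JUNB, -0.143 and 0.0536 for JUND, -0.21 and 0.15 for MAFF, and -0.22 and 0.15 for IER2. Over all genes, the lowess correction gave 1675 higher and 1647 lower calls, and leaving out 1 library gave 474 to 2273 higher and 453 to 1845 lower, the highest counts without oeSTUB1 replicate 2. The cause was not tested.

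The list counts were small and moved with the setting. Without the filter, 1 bZIP partner, 1 other immediate early gene, 1 upstream gene and 0 AP-1 targets were lower. Without the eBayes trend, 2 other immediate early, 0 upstream and 1 turnover gene were higher, and 1 upstream gene and 0 AP-1 targets were lower. Median-ratio scaling left 0 upstream and 1 turnover gene higher, quantile normalization left 1 upstream gene higher, and the lowess correction gave 2 AP-1 targets lower. With 1 library left out, the ranges were 1 to 3 bZIP partners lower, 1 to 3 other immediate early genes higher and 1 to 4 lower, 0 to 5 upstream genes higher and 0 to 3 lower, 1 to 2 turnover genes higher, and 3 to 7 AP-1 targets higher and 0 to 1 lower.

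Libraries with the same number did not deviate together (r across genes -0.049, -0.052 and 0.062 for replicates 1, 2 and 3). That gave no sign of pairing by number, but libraries made together need not deviate together, so it cannot exclude pairing. With the replicate block, 741 genes were higher and 747 lower, FOS (adjusted p = 0.00192) and FOSL2 (adjusted p = 0.0212) were still called, and 2 other immediate early, 0 upstream and 1 turnover gene were higher and 0 AP-1 targets lower.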
